A study of Danio rerio with 6 samples.

Results

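Integrin subunit genes were described across 3 groups of cells sorted from the regrowing caudal fin of the zebrafish. The members were all gene symbols of the deposited table that begin with itga or itgb followed by a subunit number or letter, leaving out the integrin-binding proteins named itgb1bp and itgb3bp and the integrin-like gene itgbl1. There were 32 of them among 30841 symbols, 20 for α subunits and 12 for β subunits, and for each the transcript with the most reads over the 6 libraries was used. RNA was sequenced from 2 libraries of each group, taken from adult caudal fins 14 days after amputation (dpa). The groups were osteoblasts (titled EGFP-/sp7+), osteogenic mesenchymal progenitors or OMP (titled EGFP+/sp7+) and chondrogenic mesenchymal progenitors or CMP (titled EGFP+/sp7-). All fish, of a Tubingen-derived strain, carried the same transgenes: cryaa:EGFP together with sox9a:Cre-ERt2, then Ola.Actb:loxp-TagBFP-loxp-EGFP, then Ola.Sp7:mCherry. Recombination to EGFP thus depends on sox9a-driven Cre, and mCherry on the medaka sp7 promoter. How many fish went into a library, and whether replicates came from separate fish, is not stated in the labels. The p-values therefore rest on the spread between library pairs, which may be technical. The stated question of the study is how fin mesenchyme and osteoblasts are related by lineage, and the comparisons it implies are OMP against CMP, osteoblasts against OMP and osteoblasts against CMP.

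Integrins are cell surface receptors made of an α and a β subunit, and they tie the extracellular matrix outside the cell to the actin skeleton inside it. The α subunit largely sets the ligand. One branch carries an inserted domain that binds collagen, another reads the RGD tripeptide of fibronectin, vitronectin or osteopontin, a further one binds laminins of the basement membrane, and the pair of α4 and α9 binds tenascin, osteopontin and cell surface ligands. The β1 subunit pairs with most α subunits, β3, β5, β6 and β8 pair with αV, β4 pairs with α6 in the hemidesmosomes of epithelia, and β2 belongs to the adhesion receptors of leukocytes. In the mammalian skeleton, α10β1 is known as a collagen receptor of chondrocytes and α11β1 as one of fibroblasts and mesenchymal stem cells, and α5β1 is the classical fibronectin receptor. No sequence of these subunits was used here.

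The libraries held 3915569 to 5281896 reads with 1 transcript kept per gene, of which 4943 to 7228 reads, or 0.126% to 0.153%, fell on the 32 integrin genes. A single read was worth 0.159 to 0.326 CPM, the read count scaled to library size with TMM factors. Of the genes behind the sort, sp7 stood at 160 and 174 CPM in osteoblasts, 10.4 and 8.41 in OMP and 1.98 and 2.17 in CMP, and sox9a at 12.1 and 7.76, 10.9 and 7.14, and 53.9 and 38.0 CPM in the same groups (replicates 1 and 2 throughout). The reporter reads went against part of the titles. mCherry stood at 800.1 and 1857 CPM in osteoblasts, 1.64 and 9.84 in OMP and 0.660 and 7.83 in CMP, so that the libraries titled sp7-positive OMP held little of it. EGFP stood at 793 and 946 CPM in the libraries titled EGFP-negative osteoblast, 879 and 1111 in OMP and 865 and 800.3 in CMP. The TagBFP-NTR transgene stood at 21.8 and 43.8 CPM in osteoblasts, 15.3 and 50.6 in OMP and 63.1 and 205.5 in CMP, with no call. The CreO-ERt2 transgene had 0 reads in all libraries. The short names in the labels are Ob-GR, Ob-G and Mes-G, and the names osteoblast, OMP and CMP are used as given. Comparing osteoblasts with CMP in a fit without both OMP libraries called 9 integrin genes, 2 higher and 7 lower, the counts of the fit with all libraries.

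Itga10 and itgb5 were higher in osteoblasts than in either progenitor group, and in each of these comparisons 7 of the 19 tested integrin genes were lower and 10 were not called. After a filter on low counts 19 of the 32 genes were tested, and the filter keeps a gene that is abundant in a single group. Calls rest on edgeR's quasi-likelihood test of all 6 libraries, with Benjamini-Hochberg adjustment over the 13399 genes tested and a limit of 0.05. In osteoblasts against OMP, itga10 and itgb5 were higher and 7 genes were lower, namely itga5, itga6b, itga8, itga9, itga11a, itga11b and itgb1b.2, against a background of 8.11% of all tested genes called in either direction, 3.22% higher and 4.90% lower. In osteoblasts against CMP the same pair was higher, and itga5, itga9, itga11b, itgb1b.1, itgb1b.2, itgb2 and itgb3b were lower, against 10.6% called in all, 4.55% higher and 6.08% lower. In OMP against CMP, itga10 alone was called, as higher, where 1.89% of all genes were called, 0.955% higher and 0.933% lower. Both comparisons with osteoblasts use the same osteoblast libraries, so the calls they share are not independent. The median log2 fold change of the 19 genes was -1.41 in osteoblasts against OMP, -0.67 in osteoblasts against CMP and 0.04 in OMP against CMP, beside -0.03, -0.02 and 0.02 over all tested genes. In bulk RNA of a sorted group, fewer cells that express a gene and less RNA per cell cannot be told apart.

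Markers of mural cells, the contractile cells around vessels, were in part also lower in osteoblasts. The summed level of the 9 listed genes was 197 and 98.8 CPM in osteoblasts, 356 and 244 in OMP and 464 and 598 in CMP. Of the 8 tested, 3 were called lower in osteoblasts than in OMP, 5 lower in osteoblasts than in CMP and 1 lower in OMP than in CMP. The smooth muscle actin gene acta2 stood at 0 and 1.14 CPM in osteoblasts, 12.8 and 8.89 in OMP and 58.1 and 89.8 in CMP. The smooth muscle myosin gene myh11a was at 0 in both osteoblast libraries. Cnn1b went the other way, with 32.9 and 22.4 CPM in osteoblasts, 19.1 and 11.6 in OMP and 13.4 and 13.7 in CMP. Desmb was also highest in osteoblast replicate 1 (1.96 CPM). For cspg4 the groups overlapped, and no mural gene was called higher in osteoblasts. Of 13 tested genes of fin mesenchyme, 5 were lower in osteoblasts than in OMP, and 8 were lower and 1 higher than in CMP. Over all tested genes 4.90% were called lower in osteoblasts than in OMP, and 6.08% lower and 4.55% higher than in CMP. In OMP against CMP 0.933% of all tested genes were called lower. The part of mural cells and of other mesenchyme in the integrin levels was not tested.

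The replicate number as a block raised the calls over all genes in every comparison, by the counts given at the end. With it, OMP against CMP had 8 integrin calls in place of 1. Itga10, itga11a, itga6b, itga8 and itgb4 were then higher and itga5, itgav and itgb3b lower. The block left the counts near those without it in osteoblasts against OMP (2 higher and 8 lower, itgb4 added) and in osteoblasts against CMP (3 higher and 7 lower, itgb1a added as higher). Leaving out a library moved the counts more than the block did in the comparisons with osteoblasts, and less in OMP against CMP. Without osteoblast replicate 2 the calls in osteoblasts against OMP were 4, without OMP replicate 1 they were 6, and without CMP replicate 2 the calls in osteoblasts against CMP were 5. In OMP against CMP 0 were left without OMP replicate 1, CMP replicate 1 or CMP replicate 2, and 3 were called without either osteoblast library (itga10, itga8 and itgb3b).

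**Figure D1:**
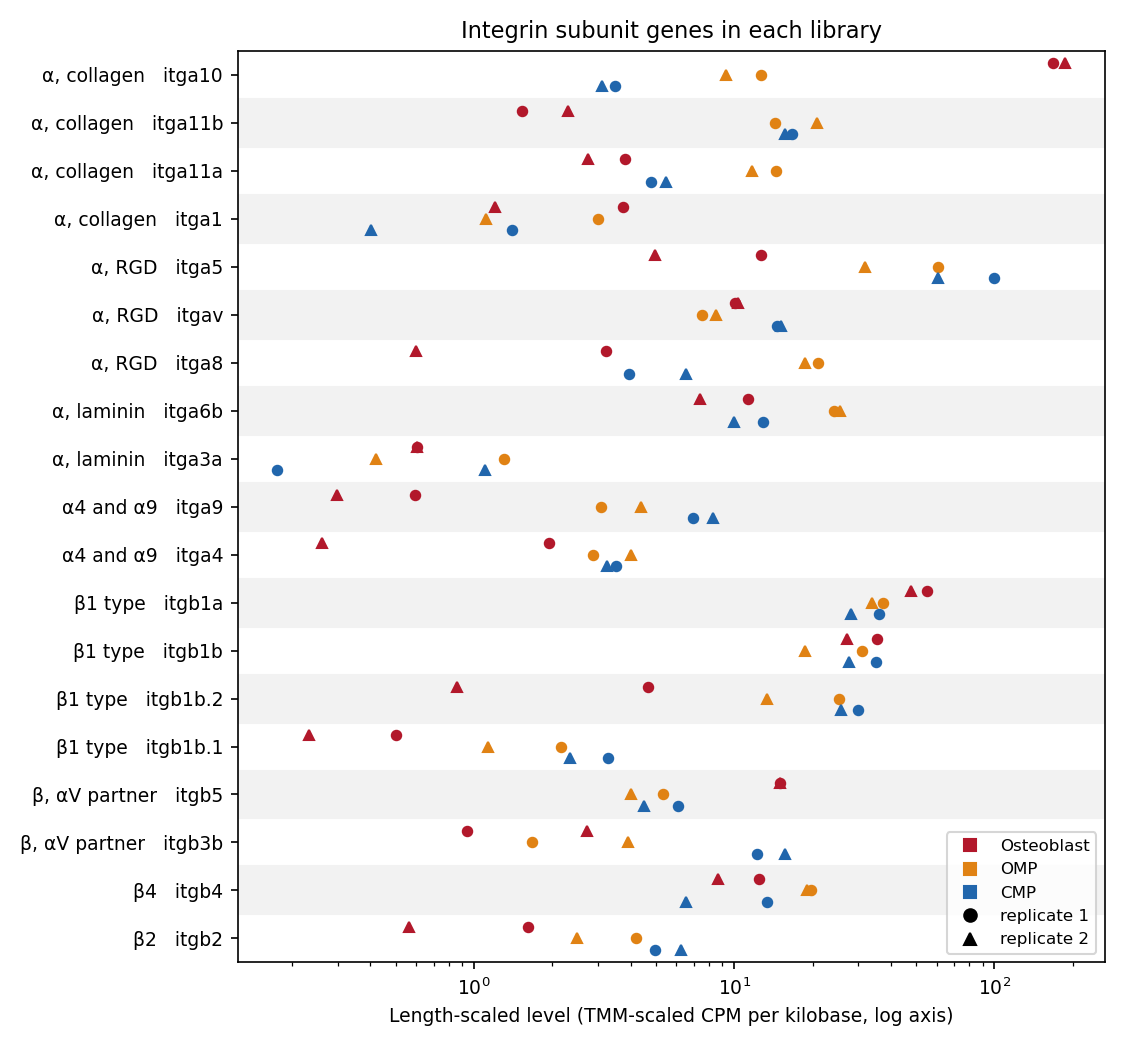
Length-scaled level of the 19 tested integrin genes in each library (TMM-scaled CPM per kilobase of transcript, log axis), with circles for replicate 1 and triangles for replicate 2. Itga10 in osteoblasts (169 and 187) stands to the right of every other gene. Itga5 is highest in CMP (99.8 and 60.5), where replicate 2 nearly meets OMP replicate 1 (60.4).

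The collagen-binding α subunits went in opposite directions. Itga10 had 799 and 887 CPM in osteoblasts, 60.2 and 44.1 in OMP and 16.5 and 14.7 in CMP. The 3 groups did not overlap, and both osteoblast libraries lay more than an order of magnitude above all others. The osteoblast level of itga10 exceeded that in OMP (log2 fold change 4.02, SE 0.31, edgeR adjusted p = 5.37e-05) and than in CMP (5.76, SE 0.34, edgeR adjusted p = 1.01e-05), and these calls held without any single library. OMP exceeded CMP by 1.74 on the log2 scale (SE 0.30, edgeR adjusted p = 0.0176). That call was lost without OMP replicate 1 (adjusted p = 0.107), CMP replicate 1 (0.142) or CMP replicate 2 (0.214), with the fold change between 1.47 and 1.83 in these fits.

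Zebrafish have a pair of itga11 genes, and both were lower in osteoblasts than in OMP. Itga11b had 6.52 and 9.81 CPM in osteoblasts, 61.3 and 89.1 in OMP and 71.1 and 66.7 in CMP. The OMP and CMP libraries overlapped, and itga11b was lower in osteoblasts than in OMP (-3.18, SE 0.39, edgeR adjusted p = 7.88e-04) and than in CMP (-3.05, SE 0.39, edgeR adjusted p = 7.15e-04), with both calls kept without any library. Its paralog itga11a had 18.9 and 13.7 CPM in osteoblasts, 72.2 and 58.4 in OMP and 24.0 and 27.3 in CMP. The OMP libraries were the highest of the 6. Itga11a was lower in osteoblasts than in OMP (-2.01, SE 0.36, edgeR adjusted p = 0.00656), a call lost without osteoblast replicate 2 (adjusted p = 0.0828). Against CMP the difference in osteoblasts was -0.67 (SE 0.36, edgeR adjusted p = 0.355), with no call. Between OMP and CMP it differed by 1.34 (SE 0.34, edgeR adjusted p = 0.0936), and with the replicate block it was higher (1.33, adjusted p = 0.0112). Itga1, the collagen receptor subunit also known from smooth muscle and leukocytes, was low and uneven, with 16.9 and 5.48 CPM in osteoblasts, 13.6 and 5.08 in OMP and 6.38 and 1.83 in CMP, and had no call. Itga2.2, an α2 gene, had 7 reads in all.

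Of the RGD-binding α subunits, itga5 and itgav were highest in CMP and itga8 in OMP. Itga5, the fibronectin receptor subunit, had 68.8 and 26.7 CPM in osteoblasts, 326 and 172 in OMP and 539 and 327 in CMP. Replicate 1 was the higher library in all 3 groups, and within each replicate number the order was CMP, then OMP, then osteoblasts. Itga5 was lower in osteoblasts than in OMP (-2.39, SE 0.49, edgeR adjusted p = 0.0143) and than in CMP (-3.19, SE 0.51, edgeR adjusted p = 0.00253). The call against OMP was lost without osteoblast replicate 2 (adjusted p = 0.0822) or OMP replicate 1 (0.0702), and that against CMP held without any library. For itga5 OMP against CMP stood at -0.80 (SE 0.46, edgeR adjusted p = 0.658), and with the replicate block it was lower (-0.83, SE 0.19, adjusted p = 0.0284).

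Itga8, which pairs with β1 and is known from mesenchyme as a receptor of nephronectin, had 18.3 and 3.42 CPM in osteoblasts, 120 and 107 in OMP and 22.4 and 37.2 in CMP. Its OMP libraries lay above all others. It was lower in osteoblasts than in OMP (-3.44, SE 0.61, edgeR adjusted p = 0.00623), with the call kept without any library. Between OMP and CMP it stood at 1.92 (SE 0.55, edgeR adjusted p = 0.140) and was higher with the replicate block (1.88, adjusted p = 0.0313). That comparison was also called without either osteoblast library, with no low-count filter, with DESeq2 or with only both groups compared. It was not called with other scalings, summed transcripts or the legacy quasi-likelihood estimate, or without an OMP or CMP library. In osteoblasts against CMP itga8 had -1.53 (SE 0.60, edgeR adjusted p = 0.167) and was called as lower without osteoblast replicate 1 or with libraries scaled by totals alone. Itgav, which joins several β subunits including β3 and β5, had 43.3 and 44.5 CPM in osteoblasts, 32.2 and 36.5 in OMP and 62.9 and 65.2 in CMP. No comparison called it without the block. Its log2 fold change was 0.35 in osteoblasts against OMP (SE 0.31), -0.54 in osteoblasts against CMP (SE 0.31) and -0.90 in OMP against CMP (SE 0.31, edgeR adjusted p = 0.246, or 0.0358 with the replicate block).

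**Figure D2:**
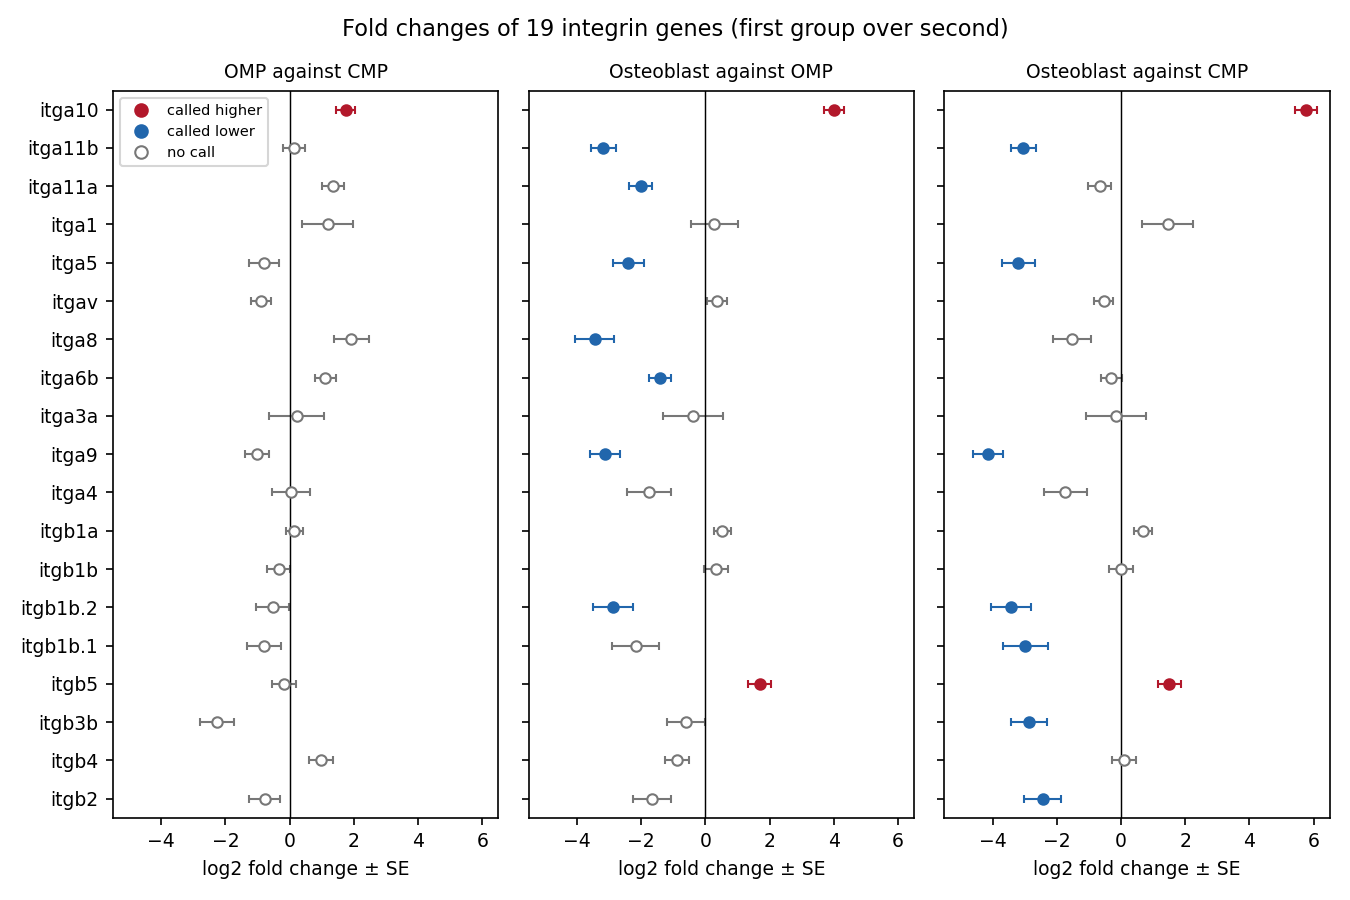
Log2 fold change ± SE of the 19 tested integrin genes in each comparison, first group over second, with filled points for genes called at an adjusted p under 0.05. Itga10 and itgb5 are the genes called higher in osteoblasts, and itga10 the only gene called in OMP against CMP.

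Of the tenascin-binding pair, itga9 was highest in CMP. It had 4.56 and 2.28 CPM in osteoblasts, 23.7 and 33.7 in OMP and 53.5 and 63.7 in CMP, with no overlap among the groups. It was lower in osteoblasts than in OMP (-3.12, SE 0.48, edgeR adjusted p = 0.00265) and than in CMP (-4.14, SE 0.47, edgeR adjusted p = 3.62e-04), and both calls held without any library. For itga9 OMP against CMP stood at -1.02 (SE 0.37, edgeR adjusted p = 0.292). Itga4 had 8.47 and 1.14 CPM in osteoblasts, 12.5 and 17.5 in OMP and 15.4 and 14.2 in CMP, and had no call with TMM scaling of all 6 libraries. Without osteoblast replicate 1, which held most of the osteoblast reads, it was called as lower in osteoblasts in both comparisons, and with libraries scaled by totals alone it was called as lower in osteoblasts than in CMP.

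The subunits of the α6β4 laminin receptor were both highest in OMP. Itga6b had 47.9 and 31.3 CPM in osteoblasts, 102 and 108 in OMP and 54.8 and 42.3 in CMP, and itgb4 had 111 and 77.6, 177 and 170.2, and 119 and 58.3 CPM in the same groups. For both genes the OMP libraries lay above the other 4, while osteoblasts and CMP overlapped. Itga6b was lower in osteoblasts than in OMP (-1.41, SE 0.34, edgeR adjusted p = 0.0292). This call was lost without osteoblast replicate 2 (adjusted p = 0.273), OMP replicate 1 (0.0935), OMP replicate 2 (0.118), CMP replicate 1 (0.0548) or CMP replicate 2 (0.0538), and with counts summed over transcripts (0.0541). Between OMP and CMP itga6b stood at 1.12 (SE 0.33, edgeR adjusted p = 0.158, or 0.0158 with the replicate block). Itgb4 stood at -0.88 in osteoblasts against OMP (SE 0.37, edgeR adjusted p = 0.245, or 0.0275 with the block) and at 0.97 in OMP against CMP (SE 0.37, edgeR adjusted p = 0.335, or 0.0291 with the block).

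Markers of the epidermis, the tissue best known for α6β4, were set beside that pair. Their summed level over 16 genes was 2435 and 1788 CPM in osteoblasts, 5676 and 6061 in OMP and 9896 and 10605 in CMP, most of it from the keratin genes krt4 and krt91, and was thus highest in CMP. Of the 16 genes, 5 were called lower in osteoblasts than in OMP, 4 lower than in CMP and 1 lower in OMP than in CMP. Over all tested genes 4.90%, 6.08% and 0.933% were called lower in these comparisons. Jupa was highest in osteoblasts (47.9 and 37.9 CPM, 36.2 and 26.8 in OMP, 36.95 and 16.8 in CMP), and for krt5 the groups overlapped. The epithelial adhesion genes epcam (36.5 and 6.16 CPM in osteoblasts, 12.5 and 8.41 in OMP, 16.7 and 3.50 in CMP) and cdh1 (4.56 and 1.83, 4.09 and 1.91, and 4.84 and 3.00 CPM) lay far below krt4 and krt91 in all groups. The periplakin gene ppl was highest in OMP replicate 1 (11.4 and 4.11 CPM in osteoblasts, 76.3 and 31.4 in OMP, 33.4 and 15.7 in CMP), and its OMP and CMP libraries overlapped. Lama3, the α chain of the laminin that hemidesmosomes bind, had 0 CPM in all libraries. The part of epidermal RNA in the levels of itga6b and itgb4 was not tested. Itga3a, another laminin receptor subunit, stayed between 0.660 and 4.91 CPM.

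Among the β1 genes, itgb1a had the most reads. Itgb1a had 334 and 291 CPM in osteoblasts, 228 and 205 in OMP and 220 and 171 in CMP. The osteoblast libraries were the highest, but no comparison called it without the block. The log2 fold change was 0.53 in osteoblasts against OMP (SE 0.27, 95% interval -0.08 to 1.14), 0.68 in osteoblasts against CMP (SE 0.27, interval 0.07 to 1.29, edgeR adjusted p = 0.183, or 0.0157 with the replicate block) and 0.15 in OMP against CMP (SE 0.27, interval -0.46 to 0.76).

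The genes itgb1b, itgb1b.2 and itgb1b.1 neighbour each other in the RefSeq annotation of assembly GRCz12tu, so their reads may be split or shared and their separate values are uncertain. Itgb1b had 54.8 and 42.0 CPM in osteoblasts, 48.0 and 28.9 in OMP and 54.3 and 42.7 in CMP, and overlapped in all comparisons. Itgb1b.2 had 11.1 and 2.05 CPM in osteoblasts, 60.5 and 31.9 in OMP and 71.1 and 61.5 in CMP. It was lower in osteoblasts than in CMP (-3.42, SE 0.63, edgeR adjusted p = 0.00572), also without any library, and than in OMP (-2.89, SE 0.62, edgeR adjusted p = 0.0181), a call lost without osteoblast replicate 2 (adjusted p = 0.0890) or OMP replicate 1 (0.0721). Itgb1b.1 had 1.96 and 0.913 CPM in osteoblasts, 8.45 and 4.44 in OMP and 12.8 and 9.17 in CMP. Its call as lower in osteoblasts than in CMP (-2.98, SE 0.70, edgeR adjusted p = 0.0209) was lost without osteoblast replicate 1 (adjusted p = 0.0564), osteoblast replicate 2 (0.204), CMP replicate 1 (0.104) or CMP replicate 2 (0.0537).

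The β partners of αV divided between the groups. Itgb5, of the vitronectin receptor αVβ5, had 50.5 and 50.4 CPM in osteoblasts, 17.99 and 13.5 in OMP and 20.5 and 15.2 in CMP. Both osteoblast libraries lay above the other 4, which overlapped. Its level in osteoblasts exceeded that in OMP (1.69, SE 0.37, edgeR adjusted p = 0.0187) and than in CMP (1.51, SE 0.36, edgeR adjusted p = 0.0244). The call against OMP was lost without osteoblast replicate 1 (adjusted p = 0.0640), osteoblast replicate 2 (0.0806) or OMP replicate 2 (0.152). The call against CMP was lost without osteoblast replicate 1 (0.0847), osteoblast replicate 2 (0.105), CMP replicate 1 (0.0863) or CMP replicate 2 (0.212), and with counts summed over transcripts (0.0886). Both calls were lost when libraries were scaled by their totals alone (0.0523 and 0.109). Between OMP and CMP itgb5 stood at -0.19 (SE 0.37), a sign that turned without OMP replicate 2 (0.03) or CMP replicate 1 (0.05).

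Itgb3b, of the osteopontin and vitronectin receptor αVβ3, had 2.61 and 7.53 CPM in osteoblasts, 4.63 and 10.8 in OMP and 33.9 and 43.5 in CMP. Here replicate 2 was the higher library in all groups, and the CMP libraries stood apart from the other 4. Itgb3b was lower in osteoblasts than in CMP (-2.86, SE 0.56, edgeR adjusted p = 0.00869), a call lost without CMP replicate 2 (adjusted p = 0.0592). In OMP against CMP it stood at -2.27 (SE 0.52, edgeR adjusted p = 0.0650), and it was lower with the replicate block (-2.34, adjusted p = 0.00324). That comparison was also called without either osteoblast library, with library totals alone, with no low-count filter, with DESeq2 or with only both groups compared. It was not called with DESeq2 size factors, summed transcripts or the legacy quasi-likelihood estimate, or without an OMP or CMP library. Its paralog itgb3a had 7 reads in all, itgb6 had 20 and itgb8 had 9.

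The leukocyte subunit gene itgb2 had reads in every library of these sorted skeletal cells. It stood at 5.87 and 2.05 CPM in osteoblasts, 15.3 and 9.05 in OMP and 18.04 and 22.8 in CMP, the last from 82 and 137 reads. Itgb2 was lower in osteoblasts than in CMP (-2.44, SE 0.58, edgeR adjusted p = 0.0224), a call lost without osteoblast replicate 2 (adjusted p = 0.204), CMP replicate 1 (0.0639) or CMP replicate 2 (0.124). Of the genes for its α partners itgam was among the members, with 1 read in all. The gene itgb7 and those of an α partner, αE (itgae.1 and itgae.2), had 3, 3 and 1 reads. Itga4, the gene of α4, which also pairs with β7, had 342 reads in all. Of 16 leukocyte markers 15 were in the table, and none of the 6 tested was called in any comparison. Their summed level was 49.2 and 24.7 CPM in osteoblasts, 63.5 and 48.6 in OMP and 79.2 and 37.0 in CMP, most of it from the antigen presentation gene cd74a. The defining pan-leukocyte gene ptprc stood at 0 CPM in both osteoblast libraries, 0.545 and 0.794 in OMP and 0.220 and 0.50 in CMP, and the macrophage gene mpeg1.1 had no reads. Cd74a stood at 35.9 and 19.4 CPM in osteoblasts, 47.1 and 38.4 in OMP and 60.7 and 21.2 in CMP. The part of leukocyte RNA in the itgb2 level was not tested.

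**Figure D3:**
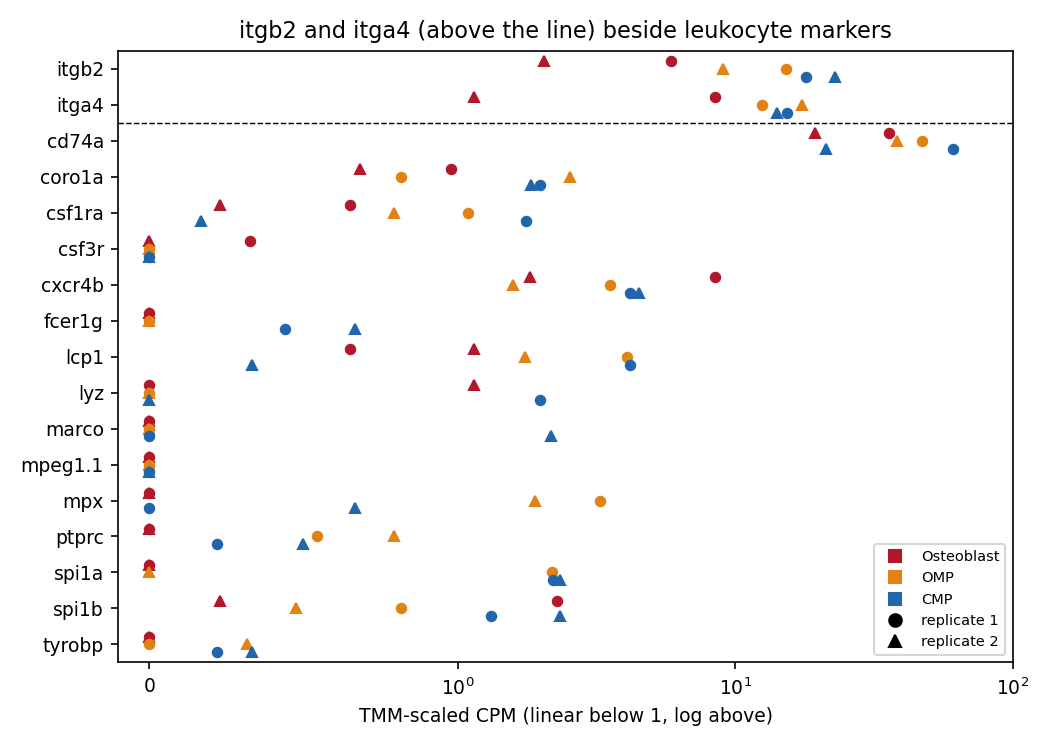
Level of itgb2, itga4 and 15 leukocyte marker genes in each library (TMM-scaled CPM, linear below 1 and logarithmic above), with circles for replicate 1 and triangles for replicate 2. Itgb2 stands at 18.04 and 22.8 CPM in CMP, where cd74a stands at 60.7 and 21.2 CPM and the other markers stay below 5 CPM.

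Scaled by transcript length, the α subunits added up to 219 and 218 CPM per kilobase in osteoblasts, 165 and 137 in OMP and 169 and 129.9 in CMP, and the β subunits to 126 and 103, 129 and 96.4, and 141 and 117 CPM per kilobase. The β totals of the 3 groups overlapped, and the α totals were highest in osteoblasts. Itga10 took 77.1% and 85.9% of the summed α level in osteoblasts, 7.69% and 6.82% in OMP and 2.06% and 2.38% in CMP. Itga5 took 5.82% and 2.27% in osteoblasts, 36.6% and 23.3% in OMP and 58.9% and 46.6% in CMP. All collagen-binding subunits together made up 81.3% and 88.7% in osteoblasts, 26.96% and 31.5% in OMP and 15.7% and 18.9% in CMP, and the RGD-binding subunits 11.9% and 7.30%, 53.8% and 43.2%, and 69.9% and 63.3%. Laminin-binding subunits were 5.67% and 3.72% of the α level in osteoblasts, 15.6% and 19.1% in OMP and 8.13% and 8.74% in CMP. The β1 genes made up 75.6% and 73.7% of the β level in osteoblasts, 74.4% and 69.4% in OMP and 74.0% and 71.4% in CMP. A further gene annotated as integrin beta-1-like, LOC110437890 (1123 bases, 77 to 132 reads a library), is not a member by its symbol. It is left out of the β totals and shares. The itgb1b transcript is only 1549 bases long, against 6086 for itgb1a, so its level per length is uncertain. These shares rest on 2 libraries a group and were not tested.

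**Figure D4:**
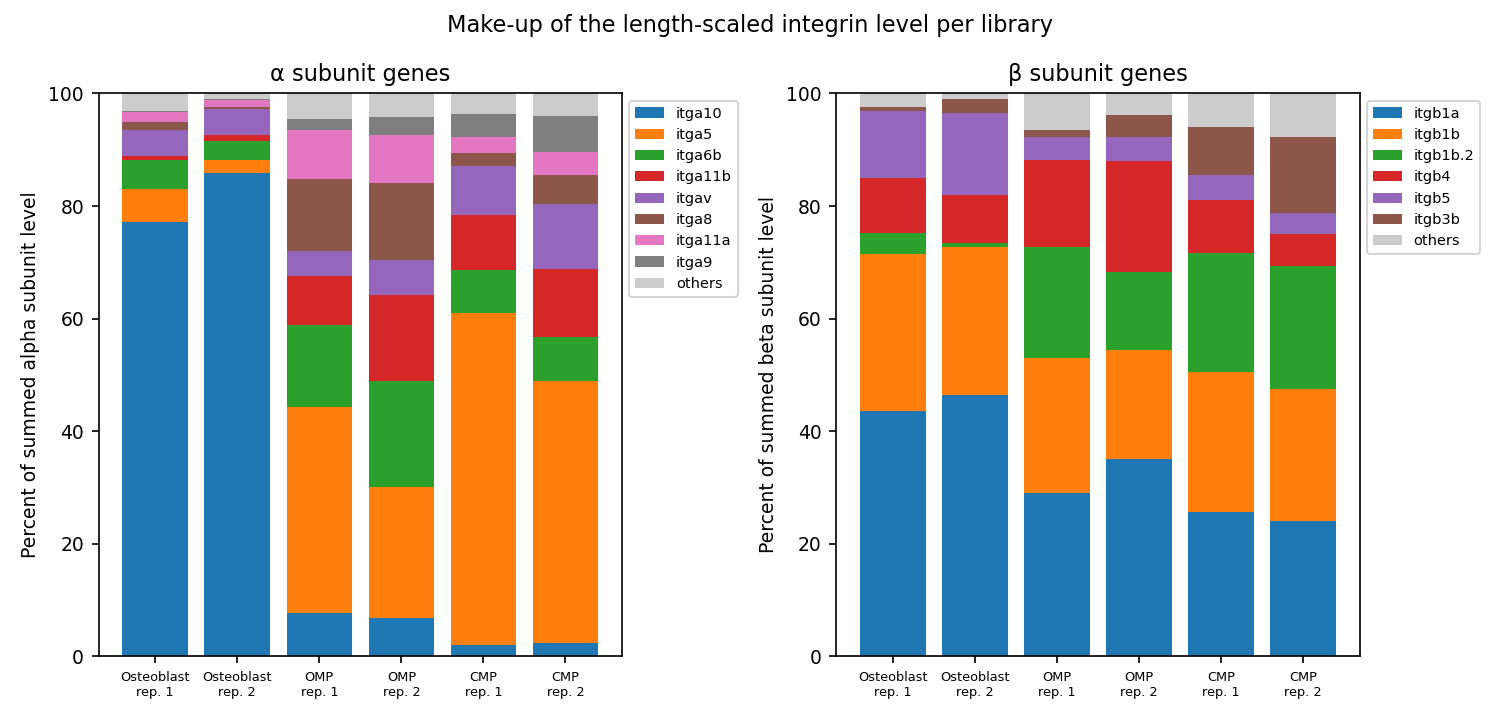
Share of each gene in the summed length-scaled level of α subunits (left) and β subunits (right), in percent, for each library. Itga10 fills 77.1% and 85.9% of the α level in osteoblasts and itga5 58.9% and 46.6% in CMP, while the itgb1a share is 43.5% and 46.4% in osteoblasts and 25.6% and 23.9% in CMP.

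Genes highest or lowest in a single group were counted beside the share over all tested genes. Both CMP libraries lay above the other 4 for 7 of the 19 tested genes (itga5, itga9, itgav, itgb1b.1, itgb1b.2, itgb2 and itgb3b), beside 10.5% of all tested genes. For itga5 this rested on 326.99 CPM in CMP replicate 2 against 326.47 in OMP replicate 1, nearly a tie. Both OMP libraries lay above the other 4 for itga6b, itga8, itga11a and itgb4, beside 7.60% of all genes. Both osteoblast libraries did so for 3 of the 19 (itga10, itgb1a and itgb5), which is near the 13.3% of all genes. Osteoblasts were the lowest group without overlap for 9 of the 19 genes, beside 15.6% of all genes. OMP was lowest for itgav alone (5.34% of all genes) and CMP for itga10 alone (9.22%), neither above the share over all genes. The genes had passed the low-count filter in part through the group where they were high, so these counts describe the 19 and not the 32 genes. The 13 genes below the filter were itga2.2, itga2b, itga3b, itga6a, itga6l, itga7, itgae.1, itgae.2, itgam, itgb3a, itgb6, itgb7 and itgb8. Among them itgb6 was highest with 3.54 CPM in OMP replicate 1, and itga2b, the thrombocyte subunit, and itga6l had 0 reads, which allows up to 0.476 to 0.978 CPM in a library, depending on its depth.

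Among genes of the adhesion machinery, proteins that act on the inner side of integrins, kank1b was higher in osteoblasts than in OMP, and in OMP than in CMP. Of 54 genes listed for this machinery 48 were found under their symbols and 37 were tested. The kinase scaffold ilk (52.6, 71.1 and 76.8 CPM per kilobase in osteoblasts, OMP and CMP), the GTPase gene rap1b (70.5, 80.7 and 71.6) and the ILK partner lims1 (54.0, 48.7 and 68.7) were the most abundant, and none of these was called. In osteoblasts against OMP, kank1b and ptk2ab were higher and flnb and zyx lower, which is 10.8% of the tested list beside 8.11% of all genes. With the replicate block git1 (1.65, adjusted p = 0.00147) and nedd9 (1.43, adjusted p = 0.00337) were higher there too. In osteoblasts against CMP, kank1b, ptk2ab, git1 and nedd9 were higher and flna, flnb and zyx lower, 18.9% of the list beside 10.6% of all genes. The block gave 4 higher and 7 lower there, and raised the calls over all genes as well. In OMP against CMP, kank1b alone was higher, which is 2.7% of the tested list beside 1.89% of all genes. With the replicate block zyx, flna, flnb and ptk2ab were among 5 lower genes there, where the calls over all genes rose as well. The list's median log2 fold change was -0.04, -0.35 and -0.32 in these comparisons. Kank1b, of the family that binds talin at adhesion sites, averaged 599 ± 116 CPM in osteoblasts, 25.9 ± 8.49 in OMP and 2.15 ± 0.688 in CMP (SD, n = 2), and differed by 4.52 between osteoblasts and OMP (SE 0.37, edgeR adjusted p = 8.26e-05). The focal adhesion kinase gene ptk2ab averaged 157 ± 0.811, 13.7 ± 0.435 and 37.0 ± 20.8 CPM (osteoblasts against OMP 3.52, SE 0.44, edgeR adjusted p = 8.12e-04). The zyxin gene zyx, whose protein gathers at tensed adhesions, averaged 52.0 ± 0.629, 133 ± 23.3 and 237 ± 0.684 CPM (osteoblasts against CMP -2.18, SE 0.29, edgeR adjusted p = 9.20e-04). The filamin gene flnb averaged 7.37 ± 5.25, 37.5 ± 3.94 and 102 ± 27.7 CPM (osteoblasts against CMP -3.84, SE 0.50, edgeR adjusted p = 8.14e-04). Of these calls, kank1b in OMP against CMP was lost without CMP replicate 1 or CMP replicate 2, and in osteoblasts against OMP zyx was lost without osteoblast replicate 1, osteoblast replicate 2 or OMP replicate 1, and flnb without osteoblast replicate 2. In osteoblasts against CMP ptk2ab was lost without CMP replicate 2, flna without osteoblast replicate 2, git1 without osteoblast replicate 1 or CMP replicate 2, and nedd9 without osteoblast replicate 1, osteoblast replicate 2 or CMP replicate 2 or with libraries scaled by totals alone.

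RNAs of matrix proteins that integrins bind were called in both directions, more of them lower than higher in osteoblasts. Of 62 listed ligand genes other than collagens, 52 were found under their symbols and 43 were tested. Those not found include the nephronectin genes npnta and npntb, dmp1 and ibsp. Of the tested genes 5 were higher and 13 lower in osteoblasts than in OMP, 6 higher and 18 lower than in CMP, and 3 higher and 2 lower in OMP than in CMP, with medians of -0.69, -1.36 and -0.41. No call was made for 25, 19 and 38 of the 43 genes. The called ligands were 41.9%, 55.8% and 11.6% of the tested list, beside 8.11%, 10.6% and 1.89% of all tested genes. The medians of all tested genes were -0.03, -0.02 and 0.02 in the same order. The fibronectin gene fn1b, a ligand of α5β1, averaged 73.0 ± 25.8 CPM in osteoblasts, 168 ± 52.8 in OMP and 754 ± 473 in CMP (SD, n = 2). It was lower in osteoblasts than in CMP (-3.37, SE 0.49, edgeR adjusted p = 0.00150) and in OMP than in CMP (-2.17, SE 0.47, edgeR adjusted p = 0.0493), and with the replicate block also lower in osteoblasts than in OMP (-1.22, adjusted p = 0.00338). Its paralog fn1a had 76.6 and 78.5 CPM in osteoblasts, 68.7 and 105.7 in OMP and 170.3 and 113.5 in CMP. With the replicate block fn1a had no call in any comparison, though osteoblasts against CMP came near the limit (-0.87, edgeR adjusted p = 0.0506). In the same fit it stood at -0.69 in OMP against CMP (adjusted p = 0.201) and -0.18 in osteoblasts against OMP (adjusted p = 0.755). The tenascin gene tnc, a ligand of α9β1, averaged 12.2 ± 1.53 CPM in osteoblasts, 83.9 ± 0.332 in OMP and 89.1 ± 18.6 in CMP (osteoblasts against CMP -2.86, SE 0.35, edgeR adjusted p = 5.03e-04). The osteopontin gene spp1, bound by αV integrins, averaged 3265 ± 443 CPM in osteoblasts, 727 ± 314 in OMP and 116 ± 35.1 in CMP (osteoblasts against CMP 4.81, SE 0.41, edgeR adjusted p = 5.97e-05). The other genes higher in osteoblasts than in OMP were thbs1b, mfge8b, mfge8a and lama5, of which mfge8a and lama5 were lost with library totals alone, with both groups fitted alone or without any 1 of the 6 libraries, and lama5 also with the legacy quasi-likelihood estimate. The 4 lower genes with the smallest p were the periostin genes postna and postnb, thbs2b and lamc3. In osteoblasts against CMP, postna, thbs2b, tgfbi and tnc were the lower genes with the smallest p. Per length, postnb (171, 2274 and 401 CPM per kilobase in osteoblasts, OMP and CMP), spp1 (2203, 490.4 and 78.2) and the tenascin gene tnw (143, 231 and 151) were highest, and tnw had no call. In OMP against CMP, postnb, spp1 and lamc3 were higher and tgfb3 and fn1b lower, calls that were all lost without CMP replicate 1 or CMP replicate 2. Both fn1b and tgfb3 were also lost there without OMP replicate 1 or OMP replicate 2, and lamc3 without OMP replicate 1. The call of fn1b was further lost with DESeq2 size factors, summed transcripts or the legacy quasi-likelihood estimate, and that of lamc3 with summed transcripts. The replicate block called 6 higher and 12 lower, where the calls over all genes rose as well. The vitronectin genes vtna and vtnb had no reads. In osteoblasts against CMP 13 of the 24 ligand calls were left without CMP replicate 1, and in osteoblasts against OMP 12 of 18 without osteoblast replicate 2.

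Collagen chains, listed as ligands of the collagen-binding integrins with β1 as a class, were called in both directions. Of 24 listed chains 23 were found under their symbols and 22 were tested, with 6 higher and 9 lower in osteoblasts than in OMP, 8 higher and 8 lower than in CMP, and 4 higher in OMP than in CMP, namely col10a1a, col10a1b, col1a1b and col1a2. The called chains were 68.2%, 72.7% and 18.2% of the tested list in these comparisons, beside 8.11%, 10.6% and 1.89% of all tested genes. With the replicate block 11 were higher and 1 lower in OMP than in CMP, where the calls over all genes rose as well. Per length, col10a1b (35423, 671 and 111 CPM per kilobase in osteoblasts, OMP and CMP), col1a2 (14900, 8808 and 2940) and col10a1a (17363, 263 and 49.6) were highest. Col10a1b, a type X chain, differed between osteoblasts and OMP by 5.72 (SE 0.45, edgeR adjusted p = 6.00e-05). Col1a1a was higher in osteoblasts than in CMP (2.64, SE 0.27, edgeR adjusted p = 1.91e-04). The type V chain col5a2b averaged 5026 ± 1204 CPM in osteoblasts, 19.7 ± 12.6 in OMP and 3.42 ± 2.01 in CMP (osteoblasts against OMP 8.03, SE 0.58, edgeR adjusted p = 4.38e-05). Chains of 1 type also went the other way, an observation made after the values were seen. The type V chains col5a1 (-2.21) and col5a2a (-2.29) and the type XI chain col11a1a (-1.80, edgeR adjusted p = 0.00474) were lower in osteoblasts than in OMP, and the type XI chain col11a1b was higher. The type X chain col10a1a averaged 45527 ± 6801 CPM in osteoblasts, 690.4 ± 140.1 in OMP and 130.1 ± 6.68 in CMP (SD, n = 2; osteoblasts against OMP 6.04, SE 0.33, edgeR adjusted p = 1.64e-05). Col11a2 averaged 3615 ± 894 CPM in osteoblasts, 11.7 ± 5.07 in OMP and 4.25 ± 5.07 in CMP (osteoblasts against OMP 8.31, SE 0.75, edgeR adjusted p = 1.16e-04). The type VI chain col6a1 averaged 459 ± 64.2 CPM in osteoblasts, 2876 ± 88.6 in OMP and 1668 ± 209.9 in CMP (osteoblasts against OMP -2.65, SE 0.27, edgeR adjusted p = 2.60e-04), and was higher in OMP than in CMP only with the replicate block (0.79, adjusted p = 0.0112). Without CMP replicate 1 and CMP replicate 2, 1 and 0 of the 4 calls in OMP against CMP were left.

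**Figure D5:**
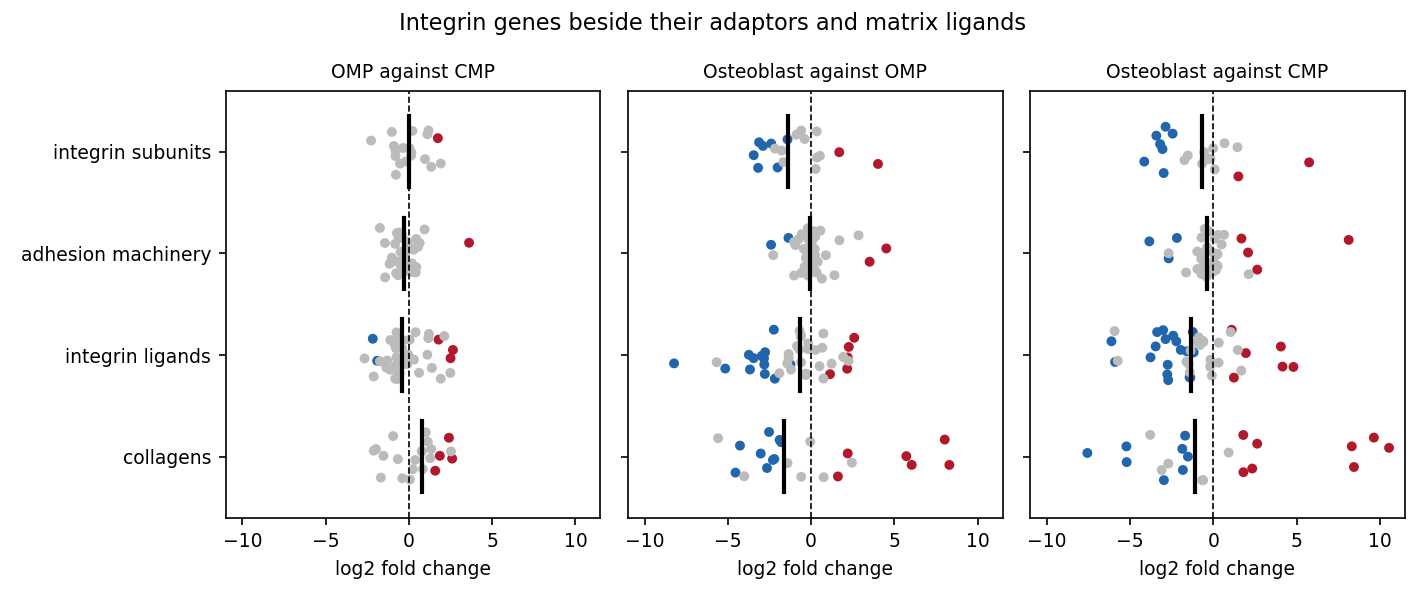
Log2 fold change of each tested gene in the integrin list and in the lists of adhesion machinery, ligands and collagens, first group over second, with red for genes called higher, blue for called lower and grey for no call. The black bar is the list's median and the dashed line that of all tested genes, and the integrin medians are 0.04, -1.41 and -0.67 from left to right.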

How the data were processed

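The authors deposited 1 table with raw read counts per RefSeq transcript in 75811 rows for 6 libraries. HISAT2 2.2.1, featureCounts 2.0.3 and build GRCz11 are named in the submitters' processing notes. The RPKM and TPM values deposited by the authors beside the counts were not used here. The transcript lengths deposited by the authors, in bases, scaled levels between genes. No strand setting is stated, and reads of overlapping genes on opposite strands could not be separated. Of 6 transgene rows, 2 had empty cells and were left out. The row with the most reads stood for its symbol, since the rows of a gene share reads (the sum over rows was a median of 1.99 times the highest among 11 integrin genes with several rows and over 100 reads).

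The test was that of edgeR 4.0.16 under R 4.3.3 (TMM scaling, filterByExpr with its minimum of 10 counts, the bias-adjusted quasi-likelihood test, two-sided, group as the only term, 3 residual degrees of freedom, biological coefficient of variation 0.377), checked on simulated data, with DESeq2 1.42.0 as an alternative. SE was taken from the log2 fold change and F (their ratio, after the root of F). A gene with 0 reads is given the limit of 3 reads, which covers counting error only. Same-numbered libraries deviated together from their group means (r = 0.422 for osteoblasts and OMP, 0.324 for osteoblasts and CMP, 0.365 for OMP and CMP, over 13399 genes), so the numbers, which are those of the titles, were taken as pairs in an alternative fit, and its values stand beside the integrin calls and the counts of calls they change, and beside some of the other genes. Integrin genes given with values in each library were those called or among the 10 highest per length, and a few others named for their class. Of other lists, up to 5 called genes with the smallest p per comparison, all where 5 or fewer were called, and the 3 highest were named. Leaving out each library, other scalings, no filter, summed transcripts and 2-group fits were the further alternatives. The members and lists were chosen with earlier results of these data known. Protein sequence features were planned but not analysed here.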

Additional observations from a re-analysis of the deposited data

How the results depend on the processing

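Alternatives were run for the counts of calls and for 39 fold changes of single genes. These were fold changes of integrin genes, sp7 and sox9a called with or without the replicate block. All comparisons of itgb1a, itgav, itgb4, itgb5 and sp7 were added. They gave 471 values with the same direction and call, 48 that lost a call, 20 that gained one and 7 that changed sign. Calls gained outside this selection, such as those of itga4, are not in the tally. In OMP against CMP the 1 integrin call became 2 with library totals alone, 3 with no low-count filter, 3 with DESeq2, 3 with only both groups compared and 8 with the replicate block. The block gave 6 calls in place of 1 for adhesion machinery, 18 in place of 5 for ligands, 12 in place of 4 for collagens and 817 in place of 253 for all genes. Ligand calls there were 8 with library totals, 9 with no filter, 9 with DESeq2 and 3 with summed transcripts, collagen calls 7 with no filter, and all-gene calls 394 with no filter and 401 with DESeq2. The block also gave 11 in place of 7 adhesion genes in osteoblasts against CMP, and 1903 in place of 1087 genes in osteoblasts against OMP and 2421 in place of 1424 in osteoblasts against CMP. It changed no integrin call beyond those given with the results. Leaving out a library gave 0 to 3 integrin calls in OMP against CMP, 4 to 9 in osteoblasts against OMP and 5 to 9 in osteoblasts against CMP. It gave 0 to 1, 2 to 4 and 4 to 7 adhesion genes in these comparisons, 0 to 8 ligands in OMP against CMP, 13 to 24 in osteoblasts against CMP, 0 to 5 collagens in OMP against CMP, and 12 to 286, 602 to 942 and 765 to 1473 genes in all. Signs changed for itgav in osteoblasts against OMP (-0.027 with library totals) and itgb4 in osteoblasts against CMP (-0.38 with library totals, and -0.34 to 0.70 leaving out a library). They also changed in OMP against CMP for itgb1a (-0.018 to 0.35) and itgb5 (-0.42 to 0.049), leaving out a library. The cause of these changes was not tested. Scaling by library totals moved the median of all genes by -0.11 in OMP against CMP, -0.37 in osteoblasts against OMP and -0.48 in osteoblasts against CMP. The legacy quasi-likelihood estimate was chosen after seeing the data. With 2 libraries a group, a library left out leaves 1, which is assumed to vary like the others.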
